A study of Mus musculus with 7 samples.

Results

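The genes described here encode the subunits of voltage-gated sodium and calcium channels, read in 7 neurons of the mouse hippocampus. They were chosen by symbol alone, as the Scn genes ending in a or b and the Cacna1, Cacna2d and Cacnb genes. The rule gave 32 genes of the 21414 named in all 7 tables, and 30 of them are described: 9 sodium channel pore genes, 3 sodium channel auxiliary genes, 10 calcium channel pore genes, 4 alpha2delta genes and 4 calcium channel beta genes. Scn2a, listed under its older symbol Scn2a1, counted once. Each was listed in each table.

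Each library held what a patch pipette had aspirated from 1 cell of a hippocampal slice. The cells lay in the stratum oriens or alveus of area CA1 in mice of the strain VIP-eGFP, in which green fluorescent protein marks cells of the vasoactive intestinal polypeptide (VIP) class of inhibitory neurons. All 7 had an axon traced to the subiculum, and none had received a treatment. The labels put all 7 in 1 group, tie no cell to an animal and give no age, so the group counted as 1 sample and no test was made between cells.

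A voltage-gated sodium channel is built on a large pore-forming alpha subunit, which opens on depolarization, carries the upstroke of the action potential and then inactivates. Small beta subunits with an immunoglobulin-like extracellular domain modify its gating and anchor it to adhesion molecules. High-voltage-activated calcium channels, which trigger transmitter release at terminals and shape firing, combine a pore-forming alpha1 subunit with a cytoplasmic beta subunit and an extracellular alpha2delta subunit. The T-type alpha1 subunits open at lower voltages and do not need a beta subunit. In the cortex and hippocampus, Scn1a is known for its role in inhibitory neurons, Scn2a for its role in excitatory neurons and Scn8a for its place at the axon initial segment.

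The libraries held 1052327 to 3398521 estimated counts. Values are in TPM, a measure of transcript abundance that divides by transcript length and by library total, so levels of different genes can be set side by side within a cell. Across cells they carry a limit: the tables of cells 1 to 6 list RefSeq transcripts and that of cell 7 lists Ensembl transcripts, and the share of TPM on protein-coding genes named in all tables ran from 13.1% (cell 6) up to 72.6% (cell 7). Values rescaled to those protein-coding genes are given where they change which cell was highest for a subunit gene or for the sum of a class. A gene was called detected above 1 TPM. For Scn1a in cell 1 this stood for 15.0 counts. The label of the cells was checked against 5 markers of VIP and GABAergic cells, of which 5 were above 1 TPM in cells 1 to 5, 4 in cell 6 and 3 in cell 7. Vip was at 25.3 to 5006 TPM and Gad1, an enzyme that makes the transmitter GABA, at 9.59 to 490 TPM in the 7 cells, while Slc32a1, the vesicular GABA transporter, was listed at 0 in cells 6 and 7. Gad2, the other enzyme of GABA synthesis, was at 0.218 TPM in cell 7 and at 21.3 to 162 TPM in the others. Transcripts of glia and blood were present as well, and values are given beside some of the results below.

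Some of the sodium channel genes are close copies, which bears on how reads can be told apart. Of all the stretches of 31 bases in its GENCODE M21 transcripts (mm10), Scn1a shared 7.26% with other members, Scn2a 8.99%, Scn3a 9.46%, Scn9a 5.87% and Scn8a 0.452%. For each of the 18 calcium channel genes the share was at most 0.861%. Reads of Scn1a, Scn2a, Scn3a and Scn9a could thus have been split between copies in the authors' counting, and their levels are uncertain to that extent. Cacnb4 shared 15.5% with genes other than members. The kit kept no strand, so reads from a gene and its antisense partner could not be told apart. Among members with a count in any library, the largest overlap with an exon on the other strand was that of Cacnb4 (16% of its exon bases, with A430018G15Rik), and no other overlap exceeded 4.67%.

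A median of 8 of the 30 subunit genes was above 1 TPM per cell. From cell 1 through cell 7 the numbers were 8, 14, 13, 6, 16, 8 and 8, or 26.7%, 46.7%, 43.3%, 20%, 53.3%, 26.7% and 26.7% of the 30. Of all 20808 shared protein-coding genes, 14.8%, 38.7%, 24.8%, 21.3%, 32.7%, 17.3% and 14.6% were above 1 TPM in the same cells. The share among the subunit genes was the higher one in each cell but cell 4. Cell 2 was the deepest library and also held the most red blood cell transcripts, with 4 markers summing to 10493 TPM against 104 to 3388 in the others, and their part in its levels was not tested. Counted by at least 3 estimated counts, 11 to 19 members were present per cell, or 36.7% to 63.3%, beside 16.7% to 42.1% of all shared protein-coding genes.

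**Figure D1:**
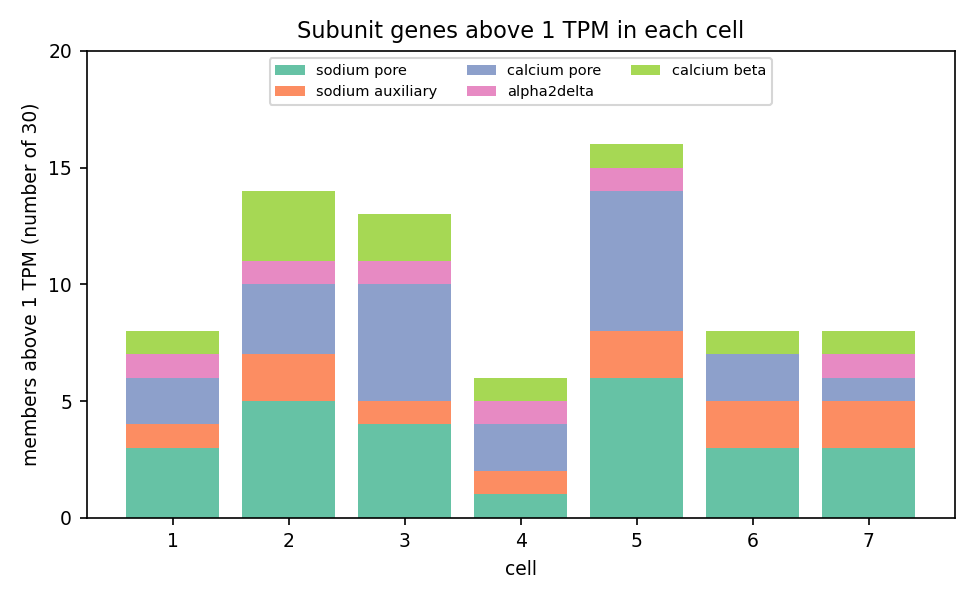
Number of the 30 subunit genes above 1 TPM in each of the 7 cells (x axis), with colours for the 5 classes of subunit. Cells 2, 3 and 5 hold 13 to 16 such genes and the others 6 to 8.

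Across cells, 9 of the 30 genes passed 1 TPM in at least 4 of the 7 cells, or 30%, beside 18.9% of all shared protein-coding genes. These were Scn1a, Scn2a, Scn3a, Scn8a, Scn2b, Scn3b, Cacna1a, Cacna1c and Cacnb3. In no cell above 1 TPM were 8 members (26.7%), beside 44.9% of all shared protein-coding genes. None was above 1 TPM in all 7 cells, against 2.94% of those genes. The remaining 13 were above 1 TPM in 1 to 3 cells. No count in any library was found for 3 of the 30 genes, beside 36.2% of all shared protein-coding genes.

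**Figure D2:**
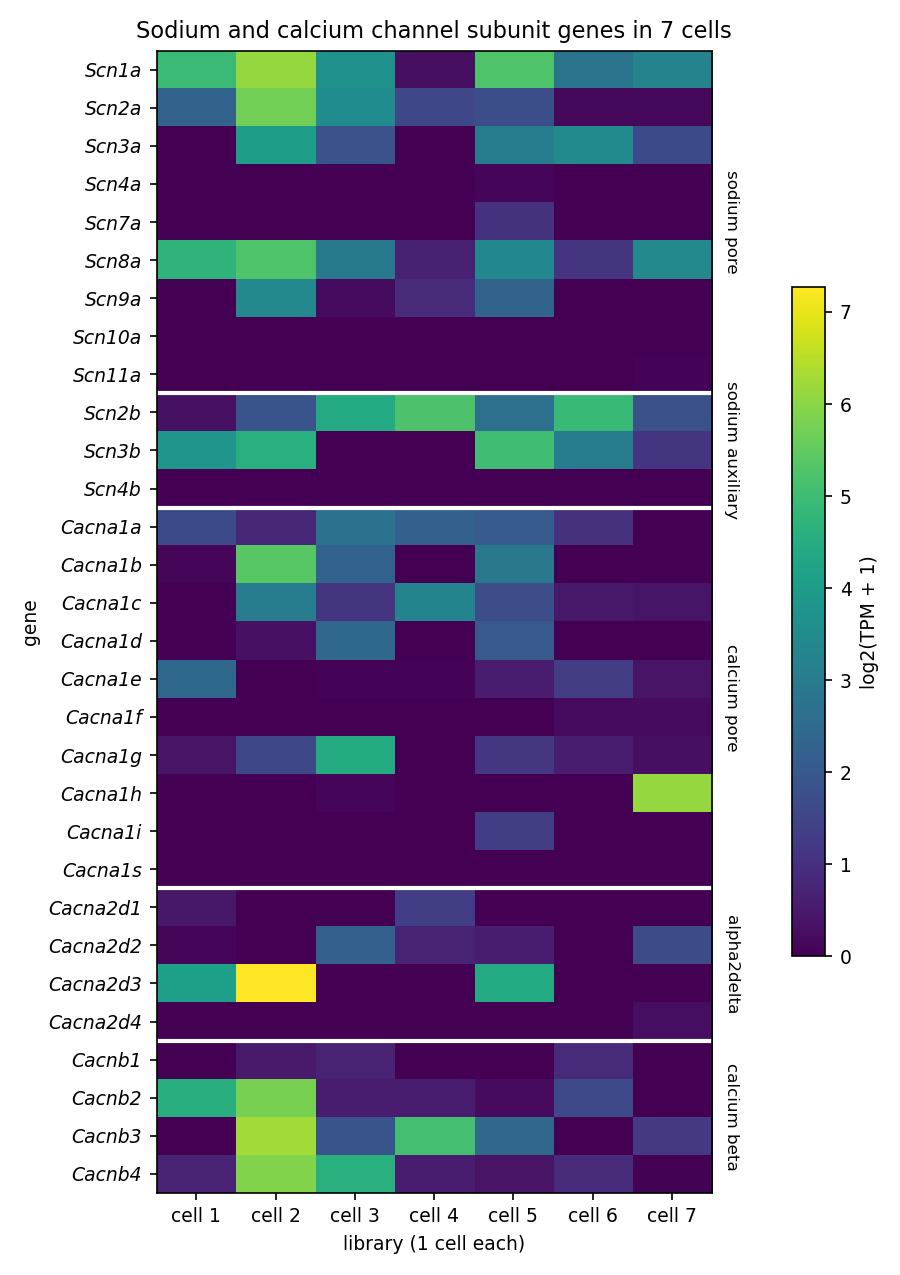
Level of each of the 30 genes (rows, grouped by class) in each of the 7 cells (columns), as log2(TPM + 1). Cacna1h is bright in cell 7 alone, and Cacna2d3 reaches the highest value, 153 TPM, in cell 2.

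The sodium channel pore genes were almost entirely the 4 brain genes Scn1a, Scn2a, Scn3a and Scn8a, which took 75.9% to 100% of the summed TPM of the 9 pore genes in any cell. The levels of Scn1a were 29.8, 69, 12.1, 0.219, 37.2, 6 and 8.6 TPM from cell 1 through cell 7. It was the leading pore gene by TPM in cells 1, 2, 3 and 5, though in cell 1 Scn8a had more estimated counts (524 against 444), and cell 4 stood below the other 6, with 3 estimated counts. In cell 7, 98.8% of its 84 counts lay on a transcript of 2978 bases that GENCODE types as a retained intron, and its coding transcripts alone were at 0.124 TPM there. Scn1a spans chr2:66270778-66440840 on mm10.

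Scn8a, whose channel gathers at the axon initial segment and nodes, was at 25.5, 37.4, 6.64, 0.587, 9.47, 1.16 and 9.79 TPM from cell 1 through cell 7. It led in cell 7, with 320 counts, and was the second gene in cells 1 and 5. After rescaling, its highest cell was cell 1 (69.7) rather than cell 2 (63.6).

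Scn2a, the gene known from excitatory neurons and early axon initial segments, had a median of 2.34 TPM. It was at 4, 51.6, 10.5, 1.91, 2.34, 0.115 and 0.107 TPM from cell 1 through cell 7. Cell 2 was thus the highest, by a smaller margin after rescaling (87.8, with 40.5 in cell 3), and cells 6 and 7 held 3 counts each. The vesicular glutamate transporter gene Slc17a7 of pyramidal cells was also highest in cell 2, at 52.2 TPM, with 7.38 TPM in cell 7 and 0 to 0.131 TPM in the other cells. Of 8 pyramidal markers, 4 were above 1 TPM in cell 2 and 2 or 3 in each other cell, with summed levels of 12.6 to 470 TPM over the 7 cells and 189 TPM in cell 2. Other markers were highest elsewhere: Nrgn in cell 7 (458 TPM, with 119 in cell 2), Camk2a in cell 1 (62.2, with 9.2 in cell 2). Neurod6 was highest in cell 5 (22.1 TPM, with 7.98 in cell 2), and Fibcd1 reached 0.947 TPM at most. Neurod1, Tbr1 and Emx1 were listed at 0 in each cell. The part of pyramidal cell transcripts in the Scn2a level was not tested.

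Scn3a, an alpha gene prominent in the embryonic brain, was at 0, 15.7, 2.63, 0, 7.35, 10.2 and 2.09 TPM from cell 1 through cell 7. For the zeros of cells 1 and 4 the floor was 0.197 and 0.215 TPM. A floor is the level that 3 counts would give at the median effective length of the gene's transcripts. On a longer transcript 3 counts give less. In cell 6 it led the class with 58.4% of the summed TPM, and after rescaling cell 6 was its highest cell (77.7, with 26.6 in cell 2). Cell 6 also had the highest summed level of 4 markers of oligodendrocyte precursors (210 TPM, against 0 to 42.9 in the other cells), with Olig1 at 119 TPM and Pdgfra at 0.754 TPM, while Cspg4 was at 0. Their part in the Scn3a level was not tested.

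The medians of the 4 brain genes ran from Scn1a (12.1 TPM) through Scn8a (9.47) and Scn3a (2.63) to Scn2a (2.34), and the ranges over cells overlapped between every neighbouring pair. Scn9a, best known from peripheral sensory neurons, was above 1 TPM in cells 2 (9.76) and 5 (3.96). With coding transcripts alone these were 3.85 and 0.812 TPM. Scn7a, a distant relative of the voltage-gated alpha genes, was at 1.09 TPM in cell 5 and listed at 0 elsewhere.

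Most of the sodium pore genes lie in chromosomal clusters, but Scn8a (chromosome 15) and Scn4a (chromosome 11) do not. Scn1a, Scn2a, Scn3a, Scn7a and Scn9a lie together on chromosome 2, between 65457118 and 66784914, and each was above 1 TPM in at least 1 cell. The sensory neuron genes Scn10a and Scn11a lie together on chromosome 9, between 119608456 and 119825456. Neither was above 1 TPM in any cell, as were 44.9% of all shared protein-coding genes, and no contrast between the clusters is read from such small sets. Scn10a had no count in any library, with floors of 0.136 to 0.285 TPM. Scn4a, the skeletal muscle gene, and Scn11a had 1 count each in a single library.

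**Figure D3:**
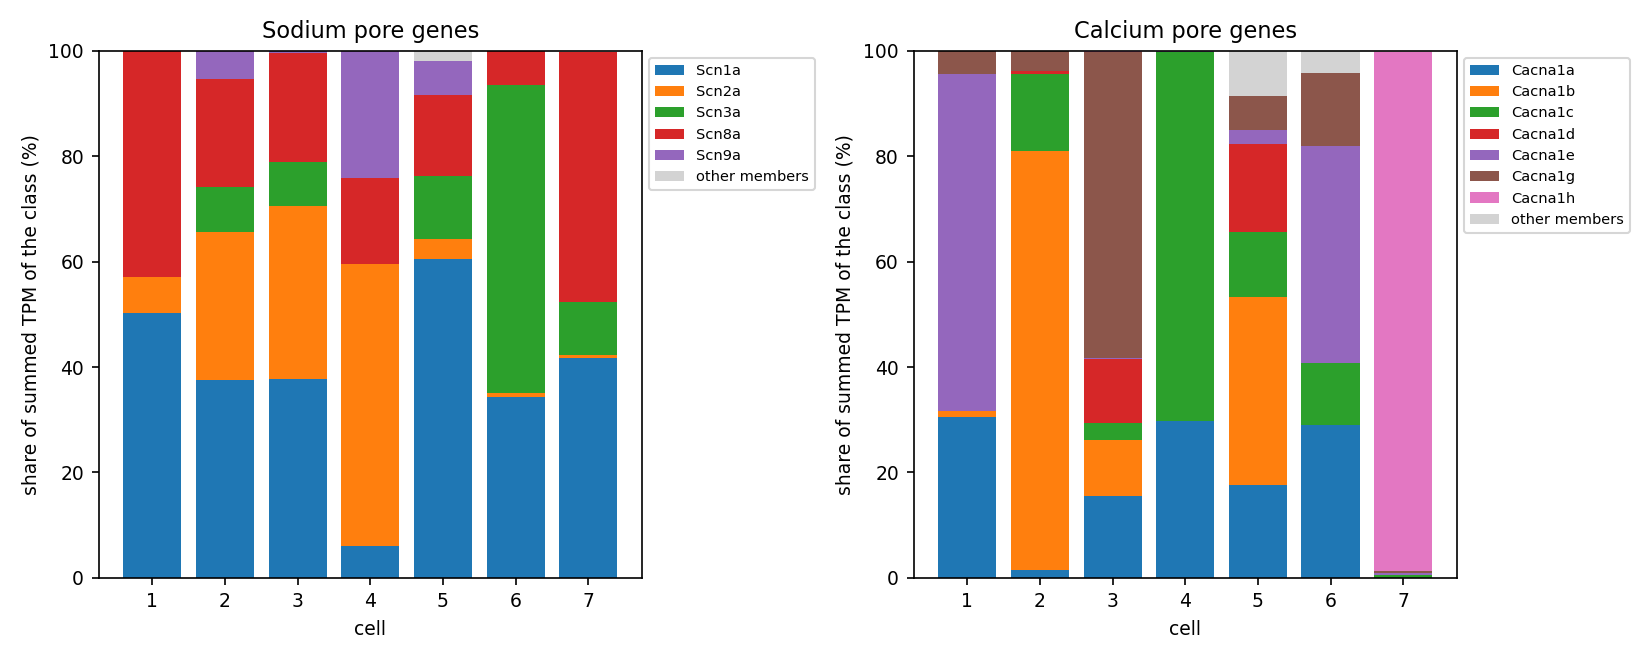
Share of the summed TPM of the 9 sodium pore genes (left) and the 10 calcium pore genes (right) taken by each gene in each of the 7 cells. Scn1a takes 34.4% to 60.5% on the left in every cell but cell 4 (6.13%), while the leading calcium pore gene changes from cell to cell. In cell 7 the Scn1a share (41.7%) comes almost entirely from a transcript typed as a retained intron, with 98.8% of its counts.

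Summed, the 9 sodium channel pore genes were at 59.2, 184, 32, 3.58, 61.5, 17.5 and 20.6 TPM from cell 1 through cell 7. Cell 4 held the lowest sum, from 42 counts, and Scn2a was its only sodium pore gene above 1 TPM.

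Among the sodium channel auxiliary genes, Scn2b, whose product is joined to the alpha subunit by a disulphide bond, was at 0.254, 2.72, 20.9, 36.8, 5.46, 28.6 and 2.47 TPM from cell 1 through cell 7. Cells 3, 4 and 6 stood above the other 4. Scn3b, whose product binds the alpha subunit without such a bond, was at 12.7, 23.4, 0, 0, 31.6, 7.46 and 1.19 TPM from cell 1 through cell 7. The floors of cells 3 and 4 were 0.279 and 0.444 TPM, so the 2 cells without a count of Scn3b were among the 3 with the most Scn2b. On the rescaled scale Scn2b was highest in cell 6 (218) and then in cell 4 (113). Scn4b, which lies next to Scn2b on chromosome 9 (45138395 to 45154152, against 45117782 to 45130070) and is tied to resurgent current in fast-firing neurons, had no count in any library.

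**Figure D4:**
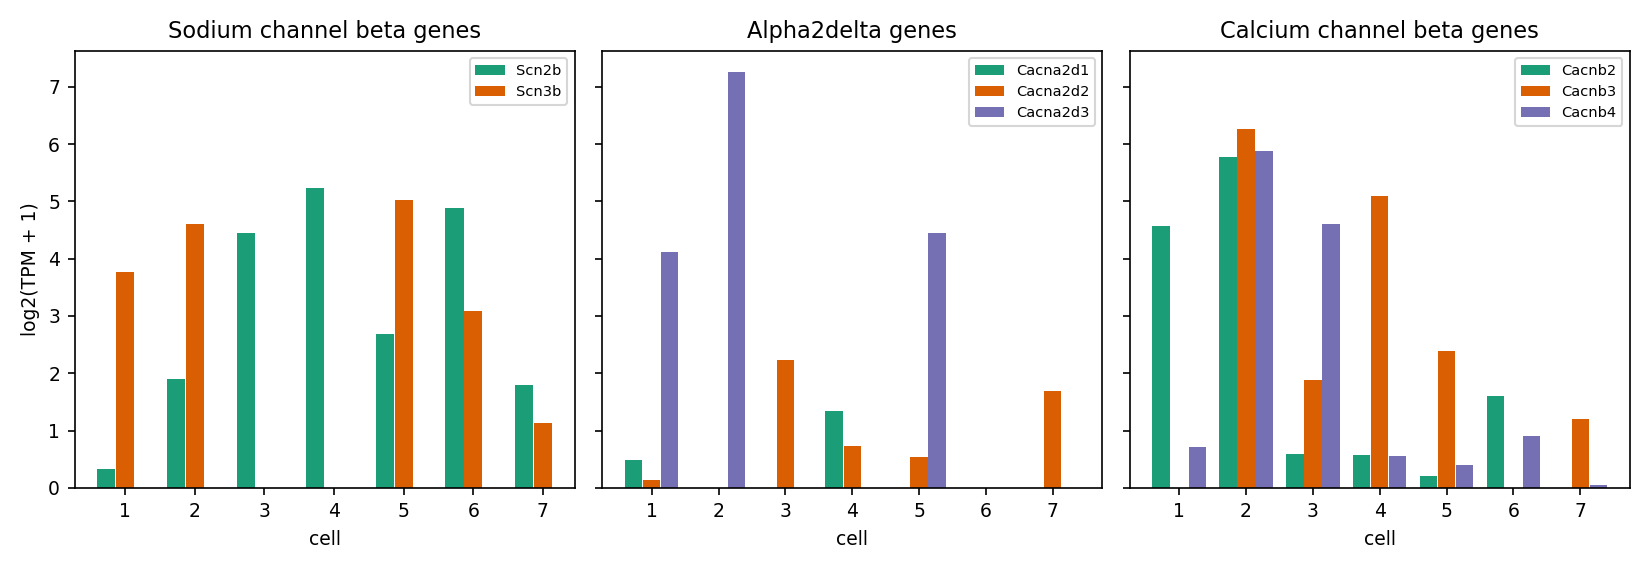
Level, as log2(TPM + 1), of Scn2b and Scn3b, of 3 of the 4 alpha2delta genes and of 3 of the 4 calcium channel beta genes, in each of the 7 cells. Cacna2d3, Cacnb2, Cacnb3 and Cacnb4 are each high in some cells and near 0 in others.

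No calcium channel pore gene led in more than 2 cells. Cacna1e, the R-type gene, led in cells 1 and 6, and Cacna1b, the N-type gene, in cells 2 and 5. Cacna1g led in cell 3, Cacna1c in cell 4 and Cacna1h in cell 7. The 10 pore genes summed to 3.59 TPM in cell 6, to 69.4 TPM in cell 7 and to a median of 18.4 TPM. On the rescaled scale cell 3 had the highest sum (141, with 95.6 in cell 7) and cell 1 the lowest (18.8, with 27.4 in cell 6).

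Cacna1a, the P/Q-type gene of fast transmitter release, was the most widely detected of these genes and never the leading one. It was at 2.09, 0.748, 5.64, 3.65, 3.24, 1.04 and 0 TPM from cell 1 through cell 7, with a floor of 0.91 TPM in cell 7. Its range was narrow, with cell 3 highest on both scales. Cacna1a spans chr8:84388440-84640246 on the plus strand.

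Cacna1b, the other main gene of transmitter release, was at 0.085, 40.9, 3.9, 0, 6.52, 0 and 0 TPM from cell 1 through cell 7, with 613 counts in cell 2, so cell 2 stood apart from the rest. Cacna1e was at 4.38 TPM in cell 1 and 1.48 in cell 6, at 0.0461 to 0.469 in cells 3, 4, 5 and 7, and listed at 0 in cell 2. The 3 genes of this group took 95.5%, 81.1%, 26.3%, 30%, 55.8%, 70.1% and 0.429% of the pore sum from cell 1 through cell 7.

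Among the L-type genes, which couple calcium entry to signalling to the nucleus, Cacna1c was above 1 TPM in the most cells. Its levels were 0, 7.48, 1.19, 8.61, 2.3, 0.424 and 0.343 TPM from cell 1 through cell 7. In cell 4 it made up 70.0% of the pore sum, the largest share it took in any of the 7 cells. Cacna1d was above 1 TPM in cells 3 (4.41) and 5 (3.06), where it exceeded Cacna1c, and was listed at 0 in cells 1, 4, 6 and 7. The retinal gene Cacna1f had 3 counts in each of cells 6 and 7 and none elsewhere, and the skeletal muscle gene Cacna1s had no count in any library.

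T-type genes, whose channels open near rest and support burst firing, made up most of the pore sum in cells 3 and 7, through different genes. Cacna1g was at 0.313, 1.98, 21.2, 0, 1.2, 0.501 and 0.228 TPM from cell 1 through cell 7, with 332 counts in cell 3. Of its 27 counts in cell 2, 7 lay on coding transcripts, which gave 0.555 TPM. Cacna1i was at 1.55 TPM in cell 5 (37 counts) and listed at 0 elsewhere.

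Cacna1h was at 68.4 TPM in cell 7, from 1613 counts, at 0.0746 TPM in cell 3, from 1 count, and listed at 0 in the other 5 cells. It was the highest of the 30 genes in cell 7 and took 98.5% of the calcium pore sum there. Of its counts there, 80.4% lay on a protein-coding transcript of 8174 bases. Cacna1h spans chr17:25374285-25433783 on the minus strand, and 1.62% of its exon bases overlap Tpsg1 on the other strand. The table of cell 7 is the only one made on Ensembl transcripts, so index and cell cannot be told apart. Cell 7 also had the highest level of 6 oligodendrocyte markers, all above 1 TPM, with a sum of 20793 TPM against 69.9 to 1288 in cells 1 to 6. It was highest as well for the sum of 7 astrocyte markers (2664 TPM, against 29.4 to 1054), of which 3 were above 1 TPM and Gfap, Gja1 and Aldh1l1 at 0. The same held for 6 microglia markers (1330 TPM, against 1.22 to 1048), of which 3 were above 1 TPM and C1qa at 0. After rescaling, however, the microglia sum was highest in cell 3 (4048, with 1832 in cell 7). Cell 7 was also highest for the sum of 8 pyramidal markers (470 TPM, against 12.6 to 189), of which 3 were above 1 TPM. Nrgn made up 458 TPM of it, while Slc17a7 was at 7.38 and Camk2a at 4.54 TPM. Of 4 vascular markers, which summed to 87.2 TPM against 0 to 27.4, Pecam1 made up 83.7 TPM and Cldn5 was at 0. Their part in the Cacna1h level was not tested.

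The products of the alpha2delta genes carry calcium channels to the surface, and those of Cacna2d1 and Cacna2d2 bind gabapentin-type drugs. At most 1 of these 4 genes was above 1 TPM per cell, beside 14.6% to 38.7% of all shared protein-coding genes. With so few genes, that count is not read as particular to the class. Cacna2d3 was at 153 TPM in cell 2 (1228 counts), 20.8 in cell 5 (188 counts) and 16.3 in cell 1 (106 counts). The other 4 cells had no count, with floors of 0.266 to 0.561 TPM. Its values thus fell into 3 cells well above the threshold and 4 without a count, and no table value lay between.

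Cacna2d2 was at 0.102, 0, 3.7, 0.667, 0.459, 0 and 2.24 TPM from cell 1 through cell 7. In cell 7, 1 of its 14 counts lay on coding transcripts. Cacna2d1 was at 1.53 TPM in cell 4 (11 counts) and 0.394 in cell 1, and listed at 0 in the other 5. All 4 alpha2delta genes were listed at 0 in cell 6, with floors of 0.131 to 0.267 TPM. Cacna2d4 had 2 counts in cell 7 and none elsewhere.

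The cytoplasmic calcium channel beta genes, whose products bind the pore subunit and raise its surface level, had different leaders as well. Cacnb3 led in cells 2, 4, 5 and 7, and was at 0, 76, 2.7, 33.2, 4.23, 0 and 1.3 TPM from cell 1 through cell 7. In cells 1 and 6, without a count of it, Cacnb2 led, at 22.8 TPM in cell 1 and 2.02 in cell 6.

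Cacnb2 was highest in cell 2, at 54.1 TPM, and at 0 to 0.499 TPM in cells 3, 4, 5 and 7. Cacnb4, a beta gene widely expressed in the brain, was at 58.1 TPM in cell 2 and 23.4 in cell 3, and at 0.0389 to 0.864 TPM in the other 5. Cell 3 was the only cell that Cacnb4 led, with 86.0% of the beta sum. Cacnb1, the beta gene of skeletal muscle, was above 1 TPM in no cell, with 9 counts at most. Cell 2 was thus the only cell with 3 beta genes above 1 TPM. It also had the highest share of all shared protein-coding genes above 1 TPM (38.7%).

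For the calcium channel, the sums of auxiliary genes were above those of pore genes in 5 of 7 cells, though barely in cell 6. In cells 3 and 7, where the pore sum was higher, T-type genes made up 58.3% and 98.8% of it. The alpha2delta and beta genes together were at 40.2, 341, 30.9, 36.3, 25.9, 3.74 and 3.77 TPM from cell 1 through cell 7. The pore sums were 6.88, 51.3, 36.5, 12.3, 18.4, 3.59 and 69.4 TPM. Pore minus auxiliary averaged -0.43 ± 2.21 (SD, n = 7 cells) in log2(summed TPM + 1), a mean smaller than the spread, with extremes of -2.71 (cell 2) and 3.88 (cell 7). Leaving out cell 7 gave -1.15, and leaving out cell 1, 2 or 4 gave -0.10, -0.05 or -0.25. The value was 0.67 with estimated counts, which are not divided by length, in place of TPM. With counts, pore was above auxiliary in 5 of 7 cells. The mean was -1.16 without Cacna1h, when pore was above auxiliary in cell 3 alone, and -1.32 with members of a mean log2(TPM + 1) of at least 1.

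**Figure D5:**
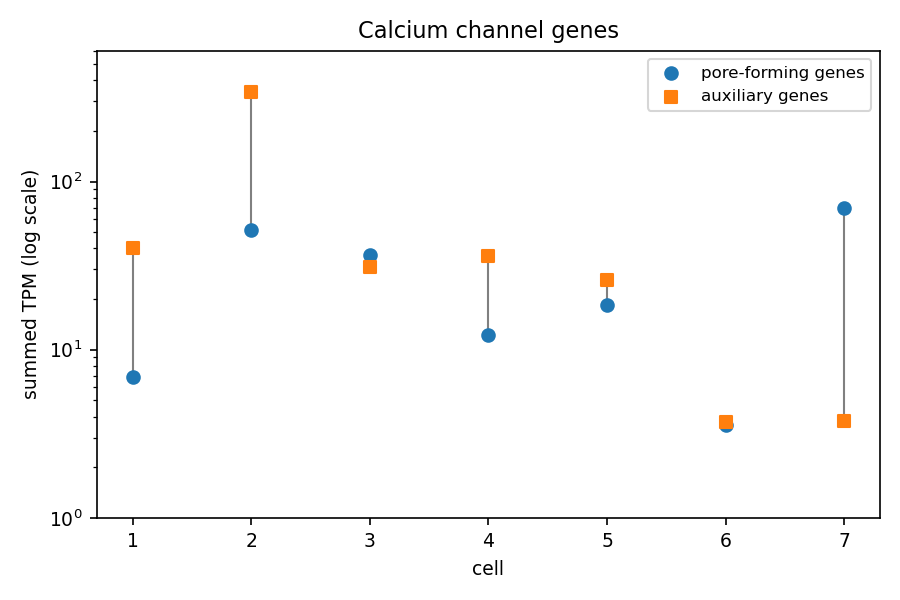
Summed TPM (log axis) of pore-forming genes (circles) and auxiliary genes (squares) of the calcium channel in each of the 7 cells, joined by a line within a cell. Auxiliary sums lie above pore sums in 5 of 7 cells, barely so in cell 6 (3.74 against 3.59 TPM), and the order is turned in cells 3 and 7.

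Genes that work with these channels were described from lists chosen by function. Of 11 genes of the axon initial segment or other partners of the sodium channel, 9 passed 1 TPM in at least 4 cells, as did 18.9% of all shared protein-coding genes. Fgf13 and Fgf12, intracellular fibroblast growth factor homologues that bind the alpha subunit, had medians of 29.8 and 15.6 TPM, and the ankyrin gene Ank2 had 13.6 TPM. In cell 4, where the sodium pore sum was 3.58 TPM, Fgf13 was at 71.9 TPM, its highest value.

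Of 5 genes of the sodium leak channel complex, 4 were named in all tables. None of these was above 1 TPM in 4 or more cells, beside 18.9% of all shared protein-coding genes. Nalcn, the leak pore gene, reached 29.4 TPM in cell 4, and its partner genes Fam155a and Unc80 reached 76.9 and 41.5 TPM in cell 2. None of the 4 was above 1 TPM in cells 1, 6 and 7. Those cells also had the lowest shares of all shared protein-coding genes above 1 TPM (14.8%, 17.3% and 14.6%).

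Of 13 genes of calcium channel tethering and transmitter release, 8 were above 1 TPM in 4 or more cells. Syt1, the calcium sensor of release, was at 7.19 to 280 TPM in the 7 cells. The scaffold genes Rims1 and Erc2 had medians of 9.85 and 9.27 TPM. Rims1 was at 104 TPM in cell 7, where 3 of the 13 genes were above 1 TPM, beside 14.6% of all shared protein-coding genes. Cacna1a and Cacna1b were listed at 0 in that cell, with floors of 0.91 and 0.633 TPM. Among 14 gamma subunit and other partner genes, 4 passed 1 TPM in at least 4 cells. They included Calm2 and Calm3, calmodulin genes whose product senses calcium at the channel mouth, with medians of 703 and 124 TPM and values above 1 TPM in 7 of 7 cells. Cacng2, a gamma subunit gene best known for its part in AMPA receptors, had a median of 12.4 TPM. In 5 of the 14 no cell was above 1 TPM. Of all shared protein-coding genes 18.9% passed in at least 4 cells and 44.9% in none, and neither count is read as particular to this list.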

How the data were processed

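RNA of 7 single cells was measured, 1 library each; per the labels' protocols, SMART-Seq v4 cDNA was amplified for 17 cycles and sequenced as paired ends with inserts averaging 225 bases. The authors deposited estimated counts and TPM per transcript, per the file headers; STAR 2.5.2a and kallisto on mm10 are named per the submitters' processing notes, with no settings. Per the file headers, transcript and effective lengths are deposited too. From these, TPM and counts were summed per symbol (Python 3.11.15, pandas 2.3.3). Missing or date-like symbols were looked up by accession: of 157 in cells 1 to 6, 122 could be repaired, and of 1210 in cell 7, 81. Rows without a gene held 0.00365% to 0.482% of TPM. Differences used a pseudocount of 1. A floor is the TPM of 3 counts at the gene's median effective length and covers counting error only. In cell 7 it can lie well above what 3 counts gave: those of Scn2a stood at 0.107 TPM, with a floor of 0.853 TPM. Retained-intron shares use GENCODE M21 types. The detection call and the differences were tested on simulated data. Values in every cell are given for members above 1 TPM in 4 or more cells and for the 3 with the highest median of each class, and for others chosen after their values were seen, such as Cacna1b and Cacna1h; partner genes are the 3 with the highest median per list. Of the 32 genes, 2 are not reported here, nor is 1 partner gene or the comparison of sodium pore with auxiliary genes; counts and sums cover the others. Members and lists were chosen with earlier results of these data known. Alternatives were other thresholds, pseudocounts and scales, single transcripts, a filter on low members, coding transcripts only and leaving out each cell.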

Additional observations from a re-analysis of the deposited data

Results flagged for a closer look

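Of 29 values tested, 5 had a single cell whose gap to its nearest neighbour made up most of the range of log2(TPM + 1) over the 7 cells. About 1 in 20 would be picked out by chance when values are normally spread. That rate does not hold for genes without counts in most cells. Scn7a and Cacna1i were listed at 0 in 6 cells, so their gap was the whole range whatever the level. Cacna1h was listed at 0 in 5 cells and had 1 count in cell 3. Cacna1h was high in cell 7, at 68.4 TPM. Cacna1g was high in cell 3, at 21.2 TPM, and Cacna2d1 in cell 4, at 1.53 TPM from 11 counts. Scn7a and Cacna1i were high in cell 5, at 1.09 and 1.55 TPM. All 5 were also picked out after rescaling over the shared protein-coding genes, which for Scn7a and Cacna1i follows from the zeros.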

How the results depend on the processing

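The median number of members per cell was 8 above 1 TPM, 16 above 0 TPM, 3 above 10 TPM, 14 with at least 3 estimated counts and 13 on the rescaled scale; leaving out each cell gave 8 to 10.5. The number in 4 or more cells was 9, with 16 above 0 TPM, 1 above 10 TPM and 14 with at least 3 counts, and 8 or 9 without each cell. For the calcium channel, pore minus auxiliary reversed with estimated counts in place of TPM, which are not divided by transcript length (0.67); leaving out each cell gave -1.15 to -0.05, and the filter on low members -1.32. Scn1a led 3 cells by estimated counts and 3 or 4 when 1 cell was left out, and the most frequent leading calcium pore gene 1 or 2. Of 150 alternatives for single members, 145 moved the median by less than the spread between cells, and the other 5 were rescaled values. With coding transcripts only, an alternative chosen after seeing the data, 4 of 73 values above 1 TPM went below it. No paired analysis was possible because there is a single group. Few counts lie behind some sums, such as 42 for the sodium pore genes in cell 4 and 95 for the calcium pore genes in cell 6, and 3 members had no count in any library.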

Other observations

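The transcripts that carried the counts were usually few. In 74 of 78 member and cell combinations with at least 10 counts, 1 transcript held over 50% of the counts, with a median of 93.8%. The N-type gene Cacna1b had 3 different leading transcripts in its 3 cells: 1 of 6749 bases in cell 2, 1 of 6809 bases in cell 3 and 1 of 9655 bases in cell 5, with 97.5% of the counts in cell 5. Cacna2d3 lay on the same transcript of 3710 bases in cells 1, 2 and 5, with 100%, 95.4% and 100% of its counts. Scn8a was the most divided, and its leading transcript held 33.0% of 266 counts in cell 5. Such shares are the authors' estimates among similar transcripts, and no test bears on them.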
